A study of Mus musculus with 160 samples.

Results

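The Myc, Max and Mxd network is a set of basic helix-loop-helix leucine zipper transcription factors that share a dimerisation partner. Its members were chosen by name, with earlier results of these data known. They are Myc, Mycn and Mycl, the partner Max, and the antagonists Mxd1, Mxd3, Mxd4, Mxi1 and Mnt. These are 9 of the 46078 genes in the count table, and all 9 had reads. They were followed through pools of 20 sorted cells from the aorta-gonad-mesonephros (AGM), the region of the mid-gestation mouse embryo in which haematopoietic stem cells first emerge. At embryonic day E10.5, endothelial cells (EC) were sorted as Cdh5+ CD41- CD45- and haematopoietic cells (HC) by CD41 and CD45. At E11.5, mesenchymal cells (MC) were sorted as Pdgfrb+ and cells of the sympathetic nervous system (SNS) as Ngfr+. Each cell type was split into Gata3-GFP+ and Gata3-GFP- cells, giving 8 populations of 20 pools each. All embryos carried the same genotype, Gata3-GFP +/-, in which a GFP reporter occupies 1 Gata3 allele. GFP+ and GFP- cells therefore differed in whether the reporter was on, not in genotype. Each sort combined several embryos, so pools of a population share embryos and p-values measure the spread among pools. Because EC and HC came from E10.5 and MC and SNS from E11.5, cell type and embryonic day cannot be told apart between those pairs.

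Myc, Mycn and Mycl have no activity of their own as single chains. With Max they bind the E-box CACGTG and activate genes for ribosome building, nucleotide and amino acid metabolism and cell cycle entry. The Mxd proteins, Mxi1 and Mnt compete for Max and for the same E-boxes, and they recruit Sin3 and histone deacetylases to repress those genes. Myc is needed in the embryo for blood cell formation, and Mycn is best known from the developing nervous system and from neuroblastoma, a tumour of the sympathetic lineage.

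The network's own promoters were searched for its binding site, because the sequences show where the members themselves could be read by Myc-Max or Mxd-Max dimers. RefSeq promoters (GRCm38.p6), from 250 bases before to 50 bases after a transcription start, were found for 8 of the 9 members (10 promoters). CACGTG, which reads the same on both strands, occurred in 3 of them, against 7.15% of all 32851 promoters of that length. The capitals mark the motif, and each sequence runs 5′ to 3′ on the strand of its gene.
Mxd4: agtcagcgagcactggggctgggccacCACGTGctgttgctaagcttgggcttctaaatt
Mnt: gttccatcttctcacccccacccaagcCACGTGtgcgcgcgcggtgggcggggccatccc
Max: ctaccccggcgcggtgagcccggtCACGTG
The Mxd4 window was chr5:34187897-34187956 on the minus strand, and its motif began 219 bases before the start. The Mnt window was chr11:74830774-74830833 on the plus strand, with the motif also before the start, and the Max window was chr12:76962246-76962275 on the minus strand, with the motif beginning 3 bases before the start and spanning it. A match is a description of the letters and not evidence of binding.

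In GRCm38 with GENCODE M21 models, Myc (ENSMUSG00000022346) lay at chr15:61985391-61990374, Mycn (ENSMUSG00000037169) at chr12:12936093-12941914 and Mycl (ENSMUSG00000028654) at chr4:122995652-123002485. Max (ENSMUSG00000059436) lay at chr12:76937269-76962201. Mxd1 (ENSMUSG00000001156) lay at chr6:86647042-86669161, Mxd3 (ENSMUSG00000021485) at chr13:55325168-55329823 and Mxd4 (ENSMUSG00000037235) at chr5:34173883-34187720. Mxi1 (ENSMUSG00000025025) lay at chr19:53310518-53375810 and Mnt (ENSMUSG00000000282) at chr11:74830920-74845725. Reads were counted over the exons of each gene. Exons on the opposite strand covered 4.43% of the exonic bases of Mxd3 (Prelid1), 6.06% of Mxd4 (Gm42846) and 2.84% of Mxi1 (Gm10197), and reads of such overlaps cannot be told apart if strand was not used.

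The number of pools that passed the limits on reads was 19 and 20 for Gata3-GFP+ and Gata3-GFP- EC, 20 and 20 for HC, 20 and 17 for MC, and 18 and 19 for SNS, with 1400824 to 16004756 counts on genes per pool. Gata3 was 2.66 ± 0.22 (SE) log2 units higher in Gata3-GFP+ than in Gata3-GFP- pools of EC, 2.89 ± 0.26 higher in HC and 1.85 ± 0.31 higher in SNS, but -0.66 ± 0.52 in MC (edgeR adjusted p = 0.50). In 12 E11.5 pools, 3 of each population, the markers went against the label: the 6 MC pools had more sympathetic and neural crest than mesenchymal marker reads, and the 6 SNS pools had more mesenchymal marker reads. Summed mesenchymal markers were 32.1 to 351.7 CPM (counts scaled to a common library total) in these MC pools and 1603.6 to 3633.1 in the other MC pools; in SNS they were 1696.7 to 3536.1 against 26.8 to 458.9. In the Gata3-GFP- MC pools among the 12, Gata3 was 122.7 to 395.2 CPM, against 2.52 to 19.04 in the other Gata3-GFP- MC pools. In the Gata3-GFP+ SNS pools among them it was 9.97 to 24.3 CPM, against 111.2 to 305.9 in the others. Gata3 there went against the reporter label too, and these pools are part of each E11.5 GFP contrast with all passing pools. Without the 12 pools, Gata3 was 1.88 ± 0.22 higher in Gata3-GFP+ MC and 2.10 ± 0.23 higher in Gata3-GFP+ SNS, with no overlap between pools of the compared populations. Each comparison of E11.5 populations is therefore given with all passing pools and without these 12. At E10.5, 6 pools (1 Gata3-GFP+ EC, 4 Gata3-GFP+ HC and 1 Gata3-GFP- HC) had over 500 CPM of mesenchymal, sympathetic, neural crest and erythroid markers in sum. The defining markers were otherwise present: endothelial markers summed to 2533 to 5168 CPM in EC and to at most 245.8 CPM in HC, and haematopoietic markers to 540.3 to 1554 CPM in HC and to at most 184.8 CPM in EC, while nephric epithelial markers stayed at or below 84.2 CPM in all populations. Median mesenchymal markers were 222.4 CPM in Gata3-GFP+ HC and 21.8 CPM in Gata3-GFP- HC. Itga2b, which encodes CD41 and marks megakaryocytes as well as early blood progenitors, had a median of 232.6 CPM in Gata3-GFP+ HC and of 8.66 CPM in Gata3-GFP- HC. In Gata3-GFP- HC, Ptprc (CD45) averaged 430.2 CPM and macrophage markers summed to 1683 to 3762 CPM, against 38.9 to 4426 CPM in Gata3-GFP+ HC. In these bulk pools, fewer cells of a type and less RNA per cell cannot be told apart.

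Myc, the family member most widely tied to proliferation, was detected in every passing pool. Its mean level ran from 20.1 ± 13.1 CPM (SD, n = 19) in Gata3-GFP+ EC to 106.8 ± 45.3 CPM (n = 20) in Gata3-GFP- HC, a 5.32-fold range. Between those ends stood Gata3-GFP+ SNS (92.6 ± 39.6 CPM), Gata3-GFP+ MC (70.96 ± 29.8), Gata3-GFP- EC (70.6 ± 22.7), Gata3-GFP- SNS (61.6 ± 15.2), Gata3-GFP- MC (46.5 ± 28.1) and Gata3-GFP+ HC (45.3 ± 24.5). Of the neighbours in this order, Gata3-GFP+ HC and Gata3-GFP+ EC alone differed beyond their spread, by 1.17 ± 0.22 log2 units (edgeR adjusted p = 2.73e-06), and of all 28 pairs of populations 14 differed. Without the 12 pools, Gata3-GFP- MC fell to 36.7 ± 16.3 CPM and became the neighbour that stood above Gata3-GFP+ EC, and 17 of 28 pairs differed.

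Mycn had the widest range of the network, 33.1-fold between the highest and lowest means. It was highest in Gata3-GFP+ SNS, at 8.60, 120.4 and 206.9 CPM in the lowest, median and highest pool, and next in Gata3-GFP- SNS (80.7 ± 34.9 CPM). It was lowest in Gata3-GFP- HC, where 6 of 20 pools had no read and 11 had 3 counts or fewer (3.25 ± 4.07 CPM). The step from Gata3-GFP+ EC (19.2 ± 21.5 CPM) down to Gata3-GFP- HC was the neighbouring pair that differed (2.51 ± 0.47 log2 units, adjusted p = 1.02e-06), and 15 of 28 pairs differed. Without the 12 pools 20 pairs differed, and the neighbours that did were Gata3-GFP- SNS above Gata3-GFP- EC (1.25 ± 0.36, adjusted p = 0.00215) and Gata3-GFP+ MC above Gata3-GFP- HC (1.59 ± 0.39, adjusted p = 0.000182). In the pools against their label, the Mycn level went with the markers. Mycn was 68.8 to 140.9 CPM in the 6 such MC pools and 0.97 to 29.2 CPM in the other MC pools. In SNS it was 8.60 to 25.4 CPM in the 6 pools and 41.2 to 206.9 CPM in the others, so that without the 12 pools every SNS pool lay above every MC pool.

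Mycl, a family member first known from lung cancer, was the rarest of the 9 in EC: 15 of 19 Gata3-GFP+ and 14 of 20 Gata3-GFP- pools had no read. Its highest means were 13.3 ± 9.85 CPM in Gata3-GFP- MC and 11.05 ± 6.42 CPM in Gata3-GFP+ SNS. A single neighbouring pair differed, Gata3-GFP+ MC (3.92 ± 3.23 CPM) above Gata3-GFP+ EC (1.001 ± 3.19 CPM), by 1.95 ± 0.63 log2 units (adjusted p = 0.00637), and without the 12 pools it did not pass (1.84 ± 0.66, adjusted p = 0.0151). Of the 28 pairs, 12 differed with all passing pools and 11 without the 12.

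**Figure D1:**
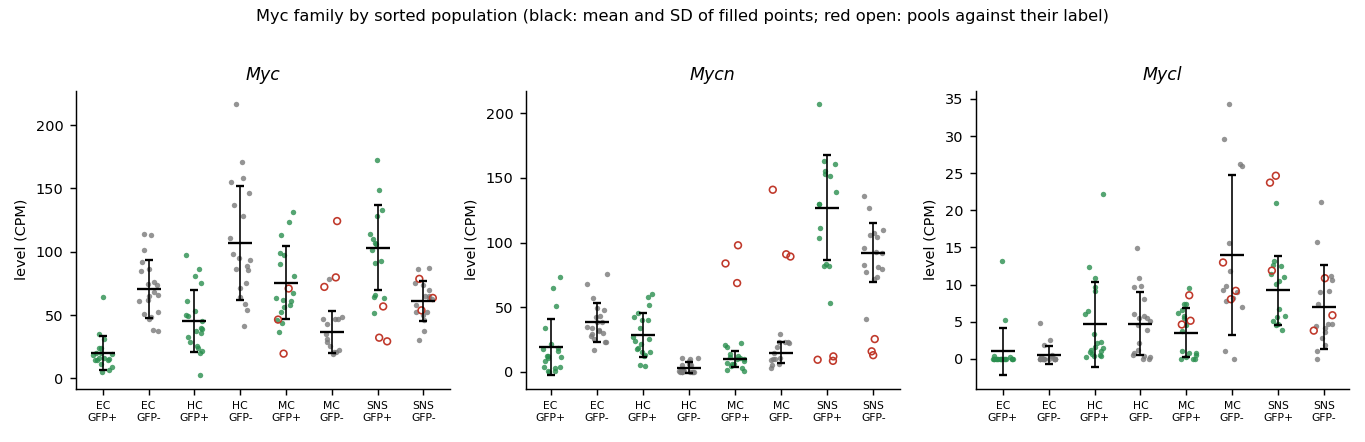
Levels of Myc, Mycn and Mycl in CPM in each pool of the 8 populations, with green points for Gata3-GFP+, grey points for Gata3-GFP-, red open points for pools whose markers go against their label, and black marks for the mean and SD of the filled points. Myc was lowest in Gata3-GFP+ EC, and the filled Mycn points of SNS lay above all filled Mycn points of MC.

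Max, the shared partner, had means that ran from 17.5 ± 6.79 CPM in Gata3-GFP+ EC to 34.4 ± 10.9 CPM in Gata3-GFP- HC, a 1.97-fold range in which no neighbours but 8 of 28 pairs differed. Among the antagonists, Mxd4 was highest in Gata3-GFP+ EC (63.5 ± 16.7 CPM) and lowest in Gata3-GFP- EC (28.7 ± 13.1 CPM). Mxd1, a repressor that accompanies the end of proliferation in many lineages, was highest in Gata3-GFP+ HC (33.8 ± 26.8 CPM) and lowest in Gata3-GFP- EC (7.87 ± 6.18 CPM). Both genes thus had their lowest mean in the same population. Mxd3, which unlike the other Mxd genes is expressed in dividing cells, was lowest in Gata3-GFP- HC, where 6 of 20 pools had no read (1.99 ± 2.94 CPM) and which differed from its neighbour Gata3-GFP+ HC by 1.90 ± 0.48 log2 units (adjusted p = 0.000718). Mxi1 and Mnt, the broadly expressed antagonists, had the fewest differing pairs of populations among the repressors. These were 2 of 28 for each, against 13 for Mxd4, 12 for Mxd1 and 7 for Mxd3. Differing pairs were not counted over all genes, so these counts, like those of the Myc family, compare the members only with each other. Fewer calls did not mean a narrower range of means for Mnt. Its range was 2.21-fold, as for Mxd4, at low levels (5.67 to 12.5 CPM), and that of Mxi1 was 1.99-fold. Without the 12 pools the counts were 11 for Max, with its lowest mean in Gata3-GFP- MC (16.4 ± 5.84 CPM), 15 for Mxd4, 11 for Mxd1, 7 for Mxd3, 3 for Mxi1 and 4 for Mnt. The neighbours that differed were then Gata3-GFP- SNS above Gata3-GFP+ HC for Mxd4 (0.54 ± 0.16, adjusted p = 0.00256) and Gata3-GFP- SNS above Gata3-GFP- HC for Mxd3 (1.70 ± 0.49, adjusted p = 0.0017).

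**Figure D2:**
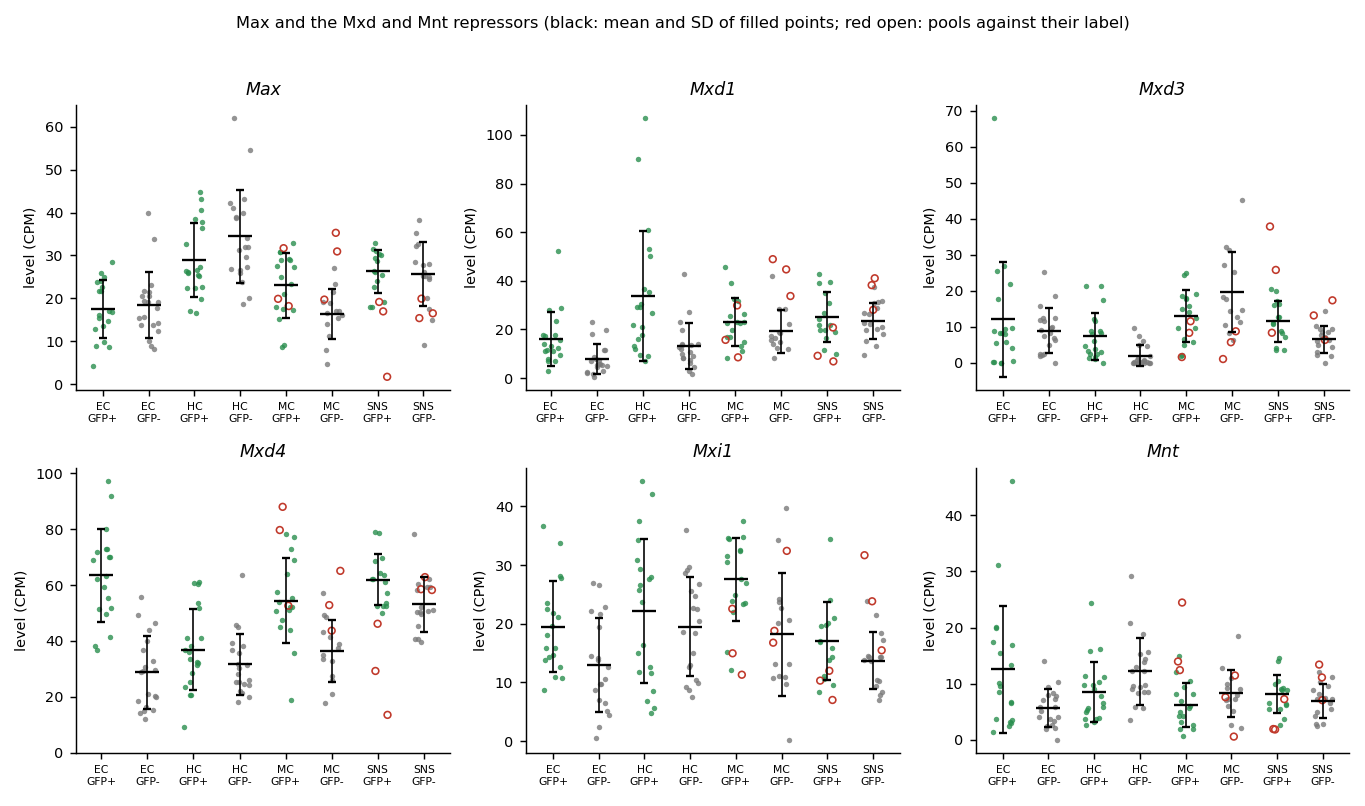
Levels in CPM of Max, Mxd1, Mxd3, Mxd4, Mxi1 and Mnt in each pool, with green points for Gata3-GFP+, grey for Gata3-GFP-, red open points for pools against their label and black marks for mean and SD of the filled points. Mxd4 was higher in Gata3-GFP+ than in Gata3-GFP- EC, and the mean of the filled Max points ran from 16.4 CPM in Gata3-GFP- MC to 34.4 CPM in Gata3-GFP- HC.

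The first comparison asked how the network differs between Gata3-GFP+ and Gata3-GFP- EC, the endothelium from which the first blood stem cells arise. Gata3-GFP+ EC had less Myc and, on TMM-scaled totals, more of the antagonists Mxd4 and Mxd1. Mxd1 lay close to the threshold and was not called with ERCC or scran size factors, with no filter on genes or with the scanpy test. Mxd4 was not called with ERCC size factors. Of the 8 members that could be tested, 2 were higher and 1 lower, in a comparison that called 36% of 15073 genes (19.5% higher and 16.5% lower), so the share of members called was near that of all genes.

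In the EC pools, Myc was 5.19, 16.2 and 64.6 CPM (lowest, median, highest) in Gata3-GFP+ and 37.2, 67.04 and 114.3 CPM in Gata3-GFP-. All but 1 of the 19 Gata3-GFP+ pools lay below every Gata3-GFP- pool. The difference was -1.85 ± 0.21 log2 units, or 3.60-fold lower (edgeR adjusted p = 1.14e-09). Mycn was 0.29, 12.2 and 73.3 CPM in Gata3-GFP+ EC and 17.2, 34.3 and 75.6 CPM in Gata3-GFP- EC. Here 12 of 19 Gata3-GFP+ pools lay below every Gata3-GFP- pool while the highest pools of both overlapped, and the difference of -1.04 ± 0.39 did not pass the threshold (adjusted p = 0.0251). Mycn did pass with the scanpy test (-2.08, adjusted p = 0.00139). Max had a difference of -0.12 ± 0.20 log2 units, with a 95% interval from -0.51 to 0.27.

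Among the antagonists in EC, Mxd4 was 36.7, 63.3 and 97.4 CPM in Gata3-GFP+ and 11.9, 29.02 and 55.7 CPM in Gata3-GFP- pools. Its level in 12 of 19 Gata3-GFP+ pools exceeded the highest Gata3-GFP- pool (1.11 ± 0.17 log2 units, adjusted p = 6.96e-07). Mxd1 was 3.10, 13.3 and 52.3 CPM against 0.55, 5.80 and 23.1 CPM, with broad overlap and 4 pools above all Gata3-GFP- pools (1.02 ± 0.32, adjusted p = 0.00826). Mnt (1.10 ± 0.38, adjusted p = 0.0151), Mxi1 (0.56 ± 0.27, adjusted p = 0.0898) and Mxd3 (0.40 ± 0.51, adjusted p = 0.545) did not pass, although Mnt did with DESeq2 (1.16, adjusted p = 0.00401) and with a fit of all 8 populations (1.13, adjusted p = 0.00176). Gata3-GFP+ EC pools held less RNA per spike-in: the mean log2 ratio of gene to ERCC counts was 5.95 ± 0.44 (SD) against 6.66 ± 0.41. Scaled to the ERCC spike-ins, the median of all genes shifted by -0.70, Myc was lower there too, and Mxd4 (0.47, adjusted p = 0.045) and Mxd1 (0.34, adjusted p = 0.39) no longer passed. On that scale Mycn (-1.75, adjusted p = 0.000549) and Max (-0.88, adjusted p = 0.00307) passed as lower in Gata3-GFP+ EC. Without the Gata3-GFP+ pool with markers of other cells, Myc (-1.83) and Mxd4 (1.09) passed, and Mxd1 did not (0.99 ± 0.33, adjusted p = 0.0120).

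In HC the same comparison again found less Myc and more Mxd1 in Gata3-GFP+ pools, but it differed in Mycn, which was higher. Of 9 members tested 2 were higher and 1 lower, against 26.6% of 16200 genes called (17.1% higher and 9.53% lower). Myc was 2.66, 39.4 and 97.6 CPM in Gata3-GFP+ HC and 41.7, 94.1 and 216.2 CPM in Gata3-GFP- HC. In 11 of 20 Gata3-GFP+ pools Myc lay below every Gata3-GFP- pool (-1.24 ± 0.24 log2 units, edgeR adjusted p = 5.02e-05).

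Mycn was 4.99, 25.04 and 60.2 CPM in Gata3-GFP+ HC and 0, 0.63 and 11.05 CPM in Gata3-GFP- HC. It was present in every Gata3-GFP+ pool and in 18 of 20 it exceeded the highest Gata3-GFP- pool (3.12 ± 0.52, adjusted p = 6.45e-06). Mxd1 was 6.84, 27.9 and 106.8 CPM against 1.80, 11.3 and 42.8 CPM, with 5 pools above all Gata3-GFP- pools (1.38 ± 0.32, adjusted p = 0.000613). Mxd3 did not pass in the fit of HC alone (1.90 ± 0.61, adjusted p = 0.0119), but the same contrast passed in the fit of all 8 populations given above, with DESeq2 (adjusted p = 0.00333) and with the scanpy test (adjusted p = 0.0012). The other members had differences of 0.00 ± 0.45 for Mycl, -0.25 ± 0.14 for Max, 0.22 ± 0.17 for Mxd4, 0.18 ± 0.25 for Mxi1 and -0.52 ± 0.25 for Mnt. Sympathetic markers, another site of Mycn expression in these data, had a median of 31.02 CPM in Gata3-GFP+ HC (up to 1268) and of 3.38 CPM in Gata3-GFP- HC. Without the 5 HC pools with markers of other cells, where 22.4% of genes were called, Mycn was still 2.83 ± 0.55 higher (adjusted p = 0.000111) and Myc 1.28 ± 0.27 lower (log2 difference -1.28, adjusted p = 0.000301), whereas Mxd1 no longer passed (1.02 ± 0.33, adjusted p = 0.0149). The part that the remaining marker difference plays in the Mycn result was not tested.

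The GFP effect itself differed between HC and EC for 3 of 9 members, where 22.7% of 17851 genes differed. For Mycn the effect was 4.13 ± 0.65 log2 units more positive in HC (adjusted p = 2.86e-07). For Mxd4 it was -0.89 ± 0.24 (adjusted p = 0.00262) and for Mnt -1.61 ± 0.45 (adjusted p = 0.00333), both more positive in EC. All 3 passed without the pools with markers of other cells, while on the ERCC scale the differences of Mxd4 (-0.30) and Mnt (-1.31) did not pass. For Myc, which was lower in Gata3-GFP+ cells of both types, the difference between the effects was 0.61 ± 0.32 (adjusted p = 0.136), and on the ERCC scale it was 1.44 ± 0.38 and passed (adjusted p = 0.00122).

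At E11.5 the direction for Myc was the opposite. With all passing pools no member passed the threshold in MC, where 4.36% of 16026 genes were called (2.21% higher and 2.15% lower), or in SNS, where 3.87% of 16143 were called (2.01% higher and 1.86% lower). At an unadjusted p under 0.05 there were 3 members in MC (Myc 0.60 ± 0.23 and Mxd4 0.52 ± 0.15 higher, Mycl -1.76 ± 0.52) and 2 in SNS (Myc 0.59 ± 0.17 and Mxd3 0.86 ± 0.33 higher). DESeq2 called 1 member in MC, Mycl, and none in SNS, and the scanpy test called none in either. The shares of all genes at that cut and with these tests were not counted, so the shares above do not apply to them.

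Without the pools against their label, Myc passed in both cell types, where 10.4% of 15226 genes in MC (5.52% higher and 4.89% lower) and 10.4% of 15658 in SNS (4.94% higher and 5.48% lower) were called. In MC, Myc was 36.9, 63.6 and 131.4 CPM in 17 Gata3-GFP+ pools and 18.9, 33.1 and 78.4 CPM in 14 Gata3-GFP- pools. In 7 of 17 Gata3-GFP+ pools its level exceeded that of any Gata3-GFP- pool (1.03 ± 0.20 log2 units, edgeR adjusted p = 0.000289). In SNS, Myc was 51.4, 106.4 and 172.6 CPM in 15 Gata3-GFP+ pools and 30.5, 63.2 and 87.5 CPM in 16 Gata3-GFP- pools. Here 11 of 15 exceeded the highest Gata3-GFP- pool (0.75 ± 0.15, adjusted p = 0.000506). Mycn in these SNS pools was 53.1, 129.999 and 206.9 CPM against 41.2, 92.6 and 136.2 CPM, with 7 of 15 Gata3-GFP+ pools above all others, and its difference of 0.45 ± 0.15 did not pass (adjusted p = 0.0345). In MC, Mxd4 (0.57 ± 0.16, adjusted p = 0.0103) and Mycl (-1.98 ± 0.59, adjusted p = 0.0167) lay close to the threshold. Max had a difference of 0.48 ± 0.21 in MC (adjusted p = 0.11).

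The GFP effect on Mycl differed between SNS and MC, by 2.42 ± 0.63 log2 units (adjusted p = 0.00388), and it was the 1 member of 9 to do so among 9.66% of 17733 genes (5.17% more positive in SNS and 4.49% in MC). Without the 12 pools the difference was 2.39 ± 0.71 (adjusted p = 0.0120) and 0 of 9 members passed, with 3 at an unadjusted p under 0.05 and 10.4% of 17309 genes called (4.73% more positive in SNS and 5.64% in MC). Over all passing pools DESeq2 called 1. The shares of all genes at an unadjusted p under 0.05 and with DESeq2 were not counted.

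**Figure D3:**
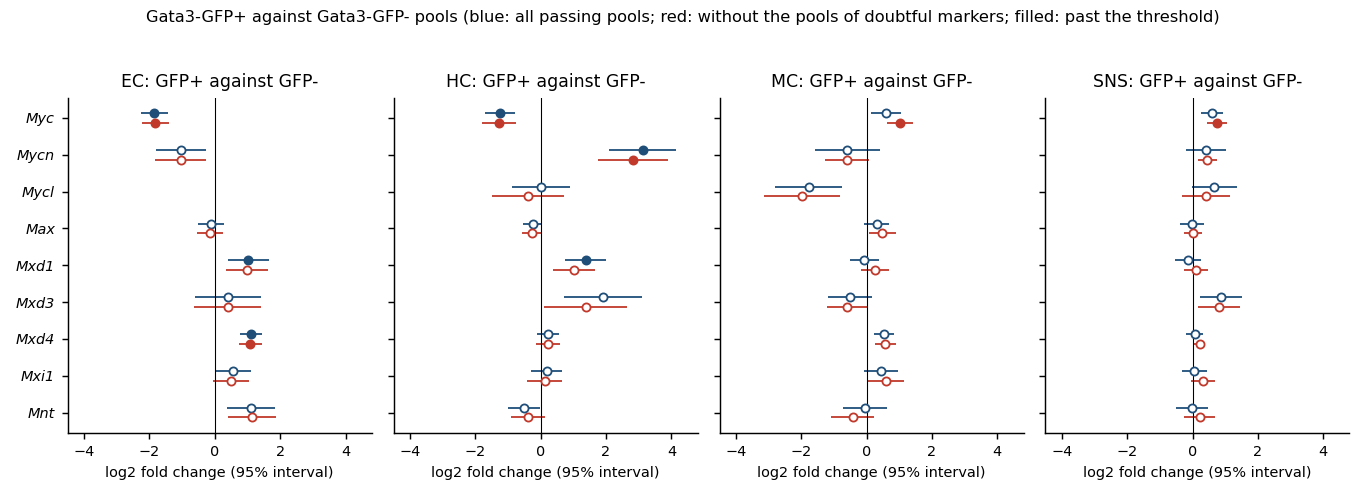
Log2 fold change of each member, Gata3-GFP+ over Gata3-GFP-, in EC, HC, MC and SNS with 95% intervals, in blue for all passing pools and in red without the pools of doubtful markers; filled points passed the threshold and Mycl could not be tested in EC. Myc was below 0 in EC and HC and above 0 in MC and SNS, and Mycn was furthest above 0 in HC.

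Haematopoietic and endothelial cells were then compared at the same reporter status and day. In Gata3-GFP+ cells, HC had more Myc and Max than EC and less Mxd4. Myc was 1.15 ± 0.23 log2 units higher (edgeR adjusted p = 1.75e-05), Max 0.70 ± 0.17 (adjusted p = 0.000319) and Mxd1 1.03 ± 0.32 (adjusted p = 0.00507), whereas Mxd4 was lower (-0.80 ± 0.17, adjusted p = 5.65e-05). These 4 calls among 9 members compare with 43.3% of 17851 genes. Without the pools with markers of other cells, Mxd1 no longer passed (0.71, adjusted p = 0.0741) and Mycl did (3.79 ± 0.82, adjusted p = 6.22e-05). Scaled to the ERCC spike-ins, which moved the median of all genes by 0.71, 5 members were higher and none was lower. The share of all genes called on that scale was not counted, so 43.3% does not apply to it.

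In Gata3-GFP- cells the contrast between HC and EC was led by Mycn. Every Gata3-GFP- HC pool (at most 11.05 CPM) lay below every Gata3-GFP- EC pool (at least 17.2 CPM), a difference of -3.57 ± 0.49 log2 units (adjusted p = 1.27e-09). Mxd3 was also lower in HC (-2.20 ± 0.58, adjusted p = 0.001). Mycl (3.15 ± 0.81, adjusted p = 0.000691), Max (0.84 ± 0.17, adjusted p = 1.69e-05) and Mnt (1.05 ± 0.32, adjusted p = 0.00432) were higher, and Myc did not pass (0.54 ± 0.22, adjusted p = 0.0363). These were 5 of 9 members, against 38.3% of genes, and the same 5 passed without the pool with markers of other cells. Both HC-to-EC contrasts came from the same fit, on different pools.

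Between SNS and MC the member that stood out was Mycn. In Gata3-GFP+ cells it was 2.34 ± 0.43 log2 units higher in SNS with all passing pools (adjusted p = 1.45e-05) and 3.66 ± 0.26 higher without the pools against their label (adjusted p = 5.8e-19). In the latter set SNS pools started at 53.1 CPM and MC pools ended at 22.6 CPM. Mycl was also higher with all pools (1.48 ± 0.44, adjusted p = 0.00603) but did not pass without the 12 (1.38 ± 0.50, adjusted p = 0.0186). The background was 24.5% of genes with all pools and 37% without the 12.

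In Gata3-GFP- cells no member passed with all pools, where 5.75% of genes did (3.16% higher and 2.59% lower). At an unadjusted p under 0.05 there were 5 members, DESeq2 called 1 and the scanpy test 2. The shares of all genes at that cut and with those tests were not counted, so 5.75% is no measure for them. Without the pools against their label, 22.2% of genes passed and 5 of 9 members did. Mycn (2.60 ± 0.27, adjusted p = 3.35e-12, no overlap), Myc (0.73 ± 0.19, adjusted p = 0.0016), Max (0.65 ± 0.18, adjusted p = 0.00402) and Mxd4 (0.53 ± 0.13, adjusted p = 0.00105) were higher in SNS. Mxd3 was lower (-1.59 ± 0.34, adjusted p = 0.000126).

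Levels of different genes were compared per kilobase of exon (CPM per kb), as shares of the summed Myc family. Myc made up most of the family in Gata3-GFP- HC, 94.2% ± 6.10 (SD, n = 20), with Mycn at 2.89% ± 4.36. In Gata3-GFP+ HC the shares were 59.98% ± 18.1 and 34.3% ± 15.6. Gata3-GFP+ EC pools differed widely: the Mycn share ran from 1.504% to 84.3% and exceeded that of Myc in 7 of 19 pools. In SNS without the pools against their label, Myc and Mycn were close to even, at 48.1% ± 7.92 and 48.7% ± 8.57 in Gata3-GFP+ and 42.9% ± 7.39 and 53.5% ± 7.85 in Gata3-GFP-. Mycl contributed 16.6% ± 13.4 in Gata3-GFP- MC without those pools and at most 6.36% in the other populations with all pools.

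Set against the summed antagonists on the same CPM per kb scale, the Myc family stood below them on average in Gata3-GFP+ EC alone. There the log2 ratio of family to antagonists averaged -0.77 ± 0.97 (SD), and 5 of 19 pools lay above 0. In Gata3-GFP- EC it was 1.73 ± 0.62, with all 20 pools above 0. On TMM-scaled totals the family sum was 13.5 ± 8.27 CPM per kb in Gata3-GFP+ EC and 37.8 ± 10.3 in Gata3-GFP- EC. The antagonist sum was 20.4 ± 6.63 and 11.4 ± 3.16. Sums scaled to the ERCC spike-ins were not computed. On that scale the log2 ratio of means, Gata3-GFP+ over Gata3-GFP- EC, was 0.48 for Mxd4, 0.34 for Mxd1 and 0.80 for Mnt. It was 0.03 for Mxi1 and -0.64 for Mxd3, against -2.66 for Myc and -1.74 for Mycn. A higher antagonist sum per spike-in was therefore not shown, while the ratio within a pool is the same on both scales. Mxd4 was the largest antagonist share in Gata3-GFP+ EC, at 38.7% ± 10.7. In HC the log2 ratio of family to antagonists followed the same direction. It was 0.53 ± 0.96 in Gata3-GFP+ (16 of 20 pools above 0) and 1.74 ± 0.73 in Gata3-GFP- (20 of 20). Without the pools against their label the ratio was above 0 in 15 of 17 Gata3-GFP+ MC pools, 8 of 14 Gata3-GFP- MC pools and all SNS pools. These ratios compare mRNA and carry no test. Lengths were all annotated exon bases of a gene, from 2369 for Mxd3 to 8483 for Mxd4, not those of the transcript present. Which side of 0 a population falls on, and the shares above, depend on that choice.

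**Figure D4:**
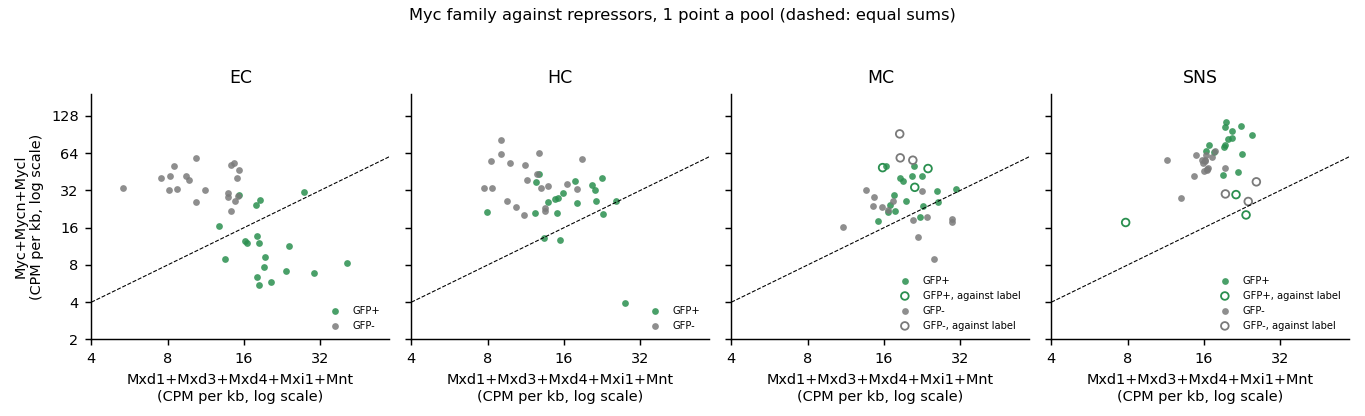
Summed Myc, Mycn and Mycl against summed Mxd1, Mxd3, Mxd4, Mxi1 and Mnt in each pool, in CPM per kb on log axes, with a panel for each cell type, a dashed line of equal sums and open points for pools against their label. Most Gata3-GFP+ EC pools fell on the antagonist side of the line, and all Gata3-GFP- EC pools on the Myc side.

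Genes that work with the network were read from 7 lists of pathway members. The median log2 difference of all genes tested was 0.10 in EC and 0.05 in HC, and the shares of genes called are those given above. The list medians in EC and HC were 0.44 and -0.11 for the further partners, -0.14 and 0.13 for the corepressors, -0.23 and -0.08 for the cofactors, and -0.08 and 0.11 for protein stability. They were 0.84 and 0.32 for the Myc-repressed genes and -1.07 and -0.39 for the proliferation genes. Of the further partners Mga, Mlx, Mlxip and Mlxipl, none passed in EC (3 tested), MC or SNS, and in HC Mlx, the partner of the glucose-sensing factor Mlxip, was 0.51 ± 0.15 higher and Mlxip -0.53 ± 0.14 lower. Of the 7 corepressors that Mxd and related complexes use, Ncor1 (0.67 ± 0.11) was among those that rose and Hdac1 (-0.25) fell in Gata3-GFP+ EC, and Hdac2 (0.66 ± 0.12), Ncor1 (0.59) and Sin3b (0.28) rose in Gata3-GFP+ HC. Sin3a did not pass in either. Without the pools with markers of other cells, 2 corepressors rose and 1 fell in both EC and HC. Of the 12 Myc cofactors, 3 rose and 5 fell in EC. The histone acetyltransferase scaffold Trrap rose (0.68 ± 0.13) and the AAA+ ATPase Ruvbl2 fell (-1.002 ± 0.14). In HC 1 rose and 2 fell, Ruvbl2 again among the latter (-0.63).

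Myc protein is short-lived, and 11 genes for its turnover and phosphorylation were followed. In Gata3-GFP+ EC 2 were higher and 3 lower, where 36% of all genes were called. In Gata3-GFP+ HC 2 were higher and 1 lower, where 26.6% were. The list did not stand apart as a set, with medians of -0.08 and 0.11 against 0.10 and 0.05 for all genes. In EC, Gsk3b, a kinase that marks Myc for decay, rose (0.41), as did the ubiquitin ligase Huwe1 (0.34), whereas Plk1 (-1.08 ± 0.29) and Skp2 (-0.86 ± 0.23) were among those that fell. In HC, Gsk3b (0.60) and Stub1 (0.31) rose and the kinase Pim1 fell (-0.86 ± 0.26), with 1 rise and 1 fall left without the pools with markers of other cells. With all passing pools 1 of the 11 fell in MC (Stub1, -0.31) and none changed in SNS, and without the pools against their label the counts were 2 fallen in MC and 2 risen in SNS.

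The 36 Myc-induced targets fell together in Gata3-GFP+ EC: 29 were lower and none higher, with a median of -1.06 against 0.10 for all genes. The one-carbon enzymes Mthfd2 (4.78 against 42.03 CPM, -3.16 ± 0.39) and Shmt1 (5.95 against 34.2 CPM, -2.61 ± 0.44) fell most, followed by Odc1 (-2.31), the first enzyme of polyamine synthesis. The nucleolar genes Ncl (-1.18), Fbl (-1.18) and Npm1 (-1.08) were lower as well. In Gata3-GFP+ HC 25 were lower and 3 higher (median -0.52 against 0.05). The hexokinase Hk2 (60.1 against 156.1 CPM, -1.38 ± 0.17) and the amino acid transporter Slc7a5 (11.8 against 31.5 CPM, -1.42 ± 0.23) fell most. The 3 that rose were Ccnd2 (313.1 against 181.5 CPM, 0.80 ± 0.18), Odc1 (0.75 ± 0.14) and Cdk4 (0.31), so Odc1 fell in EC and rose in HC. Without the pools with markers of other cells 29 targets were lower and none higher in EC, and 27 were lower and 2 higher in HC.

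In MC the direction of the targets was opposite to that of Myc. Without the pools against their label, Myc was higher in Gata3-GFP+ MC while 16 of the 36 targets were lower and none higher (median -0.34), among them Mthfd2 (-1.04 ± 0.25) and Ccnd2 (-0.78 ± 0.07). With all passing pools 3 were lower. In SNS 5 were higher and 1 lower without those pools (3 and 0 with all), led by Shmt2 (1.03 ± 0.11) and Mthfd2 (0.97 ± 0.12). Between cell types, 27 targets were higher and none lower in HC than in EC among Gata3-GFP+ cells, where 24.7% of all genes were higher and 18.6% lower. Among Gata3-GFP- cells 11 were higher and 4 lower, where 18.2% of all genes were higher and 20.1% lower. In SNS all 36 were higher than in MC among Gata3-GFP+ cells without the 12 pools (18.9% of all genes were higher), and 32 with them (12.5%). Among Gata3-GFP- cells 27 were higher in SNS without the 12 pools (11.1% of all genes), and 5 with them (3.16%).

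**Figure D5:**
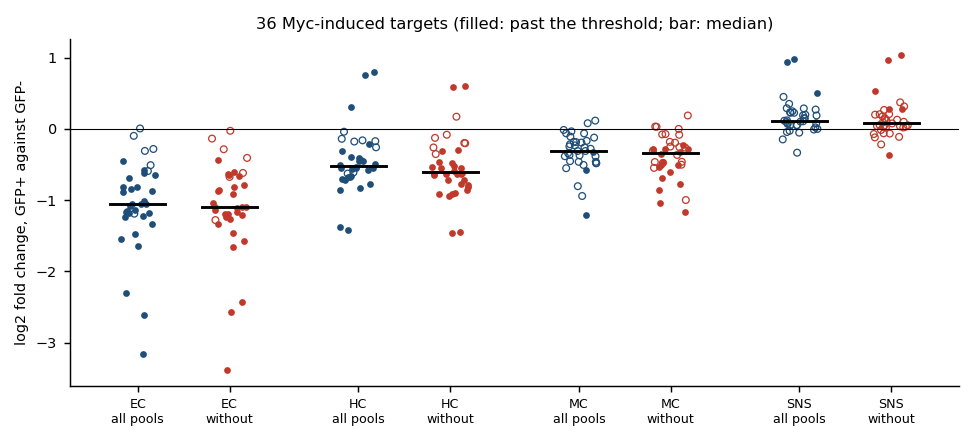
Log2 fold changes, Gata3-GFP+ over Gata3-GFP-, of the 36 Myc-induced targets in EC, HC, MC and SNS, with all passing pools and without the pools of doubtful markers; filled points passed the threshold and bars mark the median. The medians were -1.06 in EC, -0.52 in HC, -0.31 in MC and 0.12 in SNS with all passing pools.

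Of 7 genes that Myc is known to repress, Gadd45a (16.1 against 5.40 CPM, 1.53 ± 0.29) and the cell cycle inhibitor Cdkn1b (45.05 against 24.6 CPM, 0.84 ± 0.14) rose in Gata3-GFP+ EC, out of 5 tested. In Gata3-GFP+ HC, Thbs1 (1235 against 82.7 CPM, 3.90 ± 0.56) and Ndrg1 (2.25) rose, out of 6 tested. Thbs1 is also a gene of mesenchymal cells and platelets, and mesenchymal markers and Itga2b moved with it as given above. Its rise was 4.15 ± 0.60 without the pools with markers of other cells.

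Proliferation genes were lower in Gata3-GFP+ EC and HC, as Myc was. Of 13, 11 were lower and none higher in Gata3-GFP+ EC, with Rrm2 (-1.97 ± 0.23) and Mcm5 (-1.39 ± 0.15) furthest down, and 5 were lower in Gata3-GFP+ HC, with Mcm5 (-0.86) and Mki67 (-0.72) furthest; without the pools with markers of other cells 13 were lower in EC and 4 in HC. Their summed level was 736.1, 1290 and 2277 CPM (lowest, median, highest) in Gata3-GFP+ EC and 1886, 2779 and 3408 CPM in Gata3-GFP- EC. In HC it was 1182, 2582 and 3192 CPM against 2719, 3310 and 3788 CPM. In MC it was lower in Gata3-GFP+ pools (median 1728 against 2602 CPM) although Myc was not, and 3 of 13 genes fell, or 6 without the pools against their label. In SNS 3 rose, with Rrm2 (1.02 ± 0.18) and Ccna2 (0.66) furthest.

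Among the 16435 genes that reached 10 counts in 20 or more pools, the patterns most like those of the 3 family members over all passing pools were named by Pearson correlation of log2(CPM + 1), as a description of pools that share sorts and library preparation. For Mycn they were Crmp1 (r = 0.79), a gene of growing axons, Pcbp4 (0.75) and Gstk1 (0.75). For Myc they were Gm14681 (0.64), a processed pseudogene that may take reads from its parent gene, the E2F partner Tfdp1 (0.63) and the RNA export factor Nxt1 (0.62). For Mycl they included the zinc transporter Slc39a6 (0.62) and Meis3 (0.60).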

How the data were processed

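RNA from pools of 20 sorted cells was amplified by Smart-seq2 with ERCC spike-ins. The authors deposited raw read counts per Ensembl gene (46078 genes and 92 ERCC RNAs); the study's methods name STAR and HTSeq, whereas the submitters' processing notes list GSNAP and HTSeq 0.5.3p3 with mm10, and the use of strand is not given in the sources used here. Pools were kept with over 500000 reads, over 20% of reads on genes, and under 20% mitochondrial and under 20% ERCC reads, following the study; its further limit on the number of high-coverage genes was not applied, since the coverage it means is not given in the sources used here. By these limits 7 pools were left out. Reads on no feature (population medians 9.78% to 15.4%) and ambiguous reads (15.1% to 17.5%) stayed out of library sizes. Columns were matched to populations by name, and no 2 columns were identical.

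CPM were computed on TMM-scaled totals. Genes that reached 10 counts in 5 or more pools of a contrast were tested with edgeR 4.0.16 (quasi-likelihood, robust, R 4.3.3) and Benjamini-Hochberg adjustment over all genes tested; a call needs an adjusted p under 0.01 and a log2 difference beyond 0.1. Each GFP contrast was fitted within its cell type, contrasts of cell types and of GFP effects over 4 populations, and the order of levels over all 8. Alternatives were RLE, ERCC and scran 1.30.0 size factors, 2 other filters, all pools, a fit of 8 populations, DESeq2 1.42.0, the study's scanpy 1.11.5 test, and, added after seeing the data, fits without pools of doubtful markers. In simulated data for the EC contrast (14606 genes, 200 changed), edgeR recovered 59% of 2-fold and 82% of 4-fold changes with 1 false call. The simulated pools were drawn independently, so false calls that come from shared embryos and sorts cannot be seen in them.

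The network members and the gene lists (7 pathway lists; endothelial, haematopoietic, macrophage, erythroid, mesenchymal, sympathetic, neural crest and nephric epithelial markers) were chosen with earlier results of these data known. Genes named are the 9 members, Gata3, the 3 genes best correlated with each Myc family member and, per list and GFP contrast, the 2 largest rises and 2 largest falls with at least 10 counts in 75% of pools of the higher population; Sin3b, Cdk4, Ndrg1, Ncl, Fbl, Npm1, Odc1 in EC and the E11.5 genes without pools of doubtful markers were named after their values were seen. A few genes that this rule names are not reported here.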

Additional observations from a re-analysis of the deposited data

Results flagged for a closer look

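For 4 members the Gata3-GFP effect differed between cell types by the test of the difference itself. The effect on Mycn was 4.13 log2 units more positive in HC than in EC, where its difference was 3.12 in HC and -1.04 in EC. The effect on Mxd4 differed by -0.894 and that on Mnt by -1.61 between HC and EC, both being higher in Gata3-GFP+ EC (1.11 and 1.10) than their HC values (0.22 and -0.52). With ERCC size factors the differences of Mxd4 (-0.30) and Mnt (-1.31) did not pass, and Mnt within EC had not passed (edgeR adjusted p = 0.0151). The effect on Mycl differed by 2.42 between SNS and MC, with the value in MC at -1.76, and this difference did not pass without the pools whose markers go against their label.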

How the results depend on the processing

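Of 816 member values under the 11 alternatives, 764 kept their side of the threshold, 16 lost and 35 gained a call in the same direction, and 1 gained a call with the opposite sign: Mxd4 in Gata3-GFP+ SNS over MC, at 0.73 with ERCC size factors against -0.02. Of the 764, 41 changed sign, all of them past the threshold in neither fit. ERCC size factors moved the median of all genes by -0.70 for the GFP contrast in EC, 0.35 in SNS, 0.71 for Gata3-GFP+ HC over EC, 0.67 and 0.28 for SNS over MC in Gata3-GFP+ and Gata3-GFP- cells, and 0.63 and 0.38 for the differences of GFP effects. The cause of each change below was not tested. Shares of all genes called were counted for the main fits and the fits without pools of doubtful markers only. Member counts under the other alternatives therefore have no background and are not read as a result about the network. With ERCC size factors, members higher in Gata3-GFP+ EC went from 2 to 0 and lower from 1 to 3, higher in Gata3-GFP+ SNS from 0 to 1, higher in Gata3-GFP+ HC than EC from 3 to 5 and lower from 1 to 0, and higher in Gata3-GFP+ SNS than MC from 2 to 6. Members higher in Gata3-GFP+ EC were 1 with scran size factors, with no filter, with the scanpy test and without pools with other markers, but 3 with DESeq2 and with the fit of 8 populations, and members lower there were 2 with the scanpy test. Members higher in Gata3-GFP+ HC were 1 without pools with other markers and 3 with DESeq2, with the fit of 8 populations and with the scanpy test. Without the pools against their label, 1 member instead of 0 was higher in Gata3-GFP+ MC and 1 instead of 0 in Gata3-GFP+ SNS, 1 instead of 2 was higher in Gata3-GFP+ SNS than MC, 4 were higher and 1 lower instead of 0 in Gata3-GFP- SNS than MC, and 0 instead of 1 GFP effect differed between SNS and MC. DESeq2 called 1 member lower in Gata3-GFP+ MC and 1 lower in Gata3-GFP- SNS than MC. Members lower in Gata3-GFP+ SNS than MC were 1 instead of 0 with RLE size factors, with 10 counts in 20 pools, with DESeq2 and with the scanpy test. Members higher in Gata3-GFP- SNS than MC were 1 instead of 0 with all pools and 2 with the scanpy test. The share of all genes called rose from 4.36% to 10.4% in MC, 3.87% to 10.4% in SNS, 24.5% to 37% for Gata3-GFP+ and 5.75% to 22.2% for Gata3-GFP- SNS over MC without the pools against their label. No paired analysis was possible because the columns of the count table name the population and not the numbered pool, so the planned replicate block was not run. Low counts limit Mycl, Mxd3 and Mnt, and 20-cell pools give no value for single cells.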

Other observations

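Within populations, Mycn and the summed Myc-induced targets varied together among the Gata3-GFP+ SNS pools, without those against their label (log2 levels, Pearson r = 0.85, Spearman rho = 0.83, n = 15 pools, and r = 0.80 without the 2 pools farthest from the median of Mycn). In the same 15 pools Mycn also went with summed mesenchymal markers (r = 0.80) and against summed sympathetic markers (r = -0.78). Among Gata3-GFP+ EC pools Mycn went with the targets (r = 0.66, rho = 0.70, n = 19) and with haematopoietic markers (r = 0.57). In the 6 other populations r between Mycn and the targets lay between 0.01 and 0.40. Pools of a population share sorts and library preparation, and these relations, found by inspection, are given as a description with no p.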
